A study of Mus musculus with 16 samples.

Results

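Microglia of female and male mice that were sorted from the cortex after 1 week on chow with PLX3397 were compared, 4 libraries against 4. These 8 libraries were chosen by their labels, from 16 in the series. The mice were young C57BL/6J animals, and PLX3397 is an orally given inhibitor of the CSF1 receptor that also acts on the related kinases KIT and FLT3. The other 8 libraries, 4 from females and 4 from males on control chow for 1 week, are used here as the background. Microglia were isolated by fluorescence-activated sorting with a gate not given in the sources used here, and 500 pg of total RNA per sample was amplified before sequencing. The series asks what lies behind the unequal depletion of microglia by this drug in males and females. Of 47477 autosomal genes in the deposited table, 17326 reached a normalised read count of at least 10 in at least 4 of the 8 libraries and were tested. Chromosomes X and Y were left out, so the genes that mark sex directly play no part in the results.

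Microglia are the resident macrophages of the brain and depend on signalling through the CSF1 receptor for survival. Its ligands CSF1 and IL-34 activate the receptor kinase, which passes the signal on through PI3 kinase and ERK to survival and proliferation genes. Blocking the receptor removes most microglia, and the cells that remain are known to lose transcripts of the resting state such as P2ry12 and Tmem119. In a sorted population read in bulk, fewer cells of a type and less RNA per cell cannot be told apart.

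The labels matched the sex transcripts in the 8 libraries: Xist was at 7232 to 8711 normalised read counts in females and at 17.9 to 24.7 in males, and Ddx3y was at 2787 to 3307 in males and at 5.47 to 10.6 in females. Defining markers of microglia were abundant in all 8, with Sall1, which encodes a transcription factor of microglial identity, at 14259 to 23356. The libraries of the sexes also stood apart in ways that are not single genes. Normalised read counts summed to 41574000 to 42268000 in females and to 32642000 to 39584000 in males. Between 17363 and 17615 genes reached a value of 10 in the female libraries, and between 17939 and 18967 in the male ones. Mitochondrial transcripts took 0.355% to 0.455% of the total in females and 0.591% to 0.676% in males, against 0.273% to 0.353% in all 8 controls. The part of these differences in the results was not tested. The reads behind a library, estimated from the spacing of its low values, numbered 22156000 to 72227000 in females and 29692000 to 38986000 in males, ranges that overlap. Because the totals differ, each result was computed on the deposited values and again with every library scaled to the same total.

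Differences are given as females minus males on the log2(value + 1) scale, ± SE, with adjusted p-values from limma with Benjamini-Hochberg adjustment over the 17326 genes. At an adjusted p under 0.05, 14 genes were higher in females (0.0808% of those tested) and 11 were lower (0.0635%), 25 in all (0.144%). With equal totals 7 passed (0.0404%), all lower in females: 6 of the same 11 and the gene model Gm10925. Those 6 had all female values under 10, so they met the filter only through the males. The filter thus let in genes high in males alone, and the direction of these calls is limited by that. The main count of 25 was unstable, with 17 calls without male replicate 4 and 0 to 3 without any other library. A wider set of genes lay close to the threshold, since 496 had an adjusted p under 0.1 (2.86%), 371 of them higher (2.14%) and 125 lower (0.721%). Moreover, 2150 genes were higher (12.4%) and 1186 lower (6.85%) at an unadjusted p under 0.05. With equal totals that became 793 higher (4.58%) and 2560 lower (14.8%). When all 16 libraries shared 1 estimate of the spread, the same contrast gave 1072 calls (6.19%), 858 higher (4.95%) and 214 lower (1.24%). Equal totals turned that split round, to 529 calls (3.05%), 184 higher (1.06%) and 345 lower (1.99%), and moved the median over all genes from -0.00 to -0.20. Every value below was therefore read against that shift. Nothing in the labels ties a sample to its own animal, so p-values measure only the spread between these samples.

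The 14 genes higher in females were abundant and differed by 1.60-fold to 2.32-fold. Each also passed in the fit of 16 libraries, with deposited and with equal totals, while in the fit of 8 with equal totals their adjusted p was 0.0629 to 0.0984. Sc5d, which encodes sterol-C5-desaturase of cholesterol synthesis, had the largest fold. It was at 1140.2, 1285, 1529 and 1059.9 normalised read counts in the 4 females and at 581, 519, 649 and 419 in the 4 males, a difference of 1.21 ± 0.186 (adjusted p = 0.0493). The lowest female lay well above the highest male. Ski, which encodes a corepressor of TGF-beta signalling, was at 9986, 9092, 11919 and 10416 in females and at 5074, 5629.5, 4609 and 5517 in males, a difference of 0.99 ± 0.116 (adjusted p = 0.0328). Sgpp1, which encodes a phosphatase of sphingosine-1-phosphate, was at 4217, 3276, 3975 and 4139 against 2149, 1649, 1972 and 1824, a difference of 1.04 ± 0.133 (adjusted p = 0.0329). For all 14 genes the groups did not overlap, with deposited or with equal totals.

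Phgdh, Sars and Eif4e were also among the 14. Phgdh, the first enzyme of serine synthesis, was at 6578, 7311, 7448 and 6549.8 in females and at 4266, 3800.4, 3448 and 3952 in males, a difference of 0.85 ± 0.108 (adjusted p = 0.0329). Sars, the tRNA synthetase for serine, was at 4291, 6065, 5579 and 4584 against 2794, 2799.8, 2705 and 2338, a difference of 0.94 ± 0.139 (adjusted p = 0.0474). Eif4e, which encodes the protein that binds the mRNA cap, was at 3595, 4069.5, 3349 and 3709 against 2299.7, 1777, 2084 and 1913, a difference of 0.87 ± 0.125 (adjusted p = 0.0474). None of these groups overlapped. The other genes named by the rule were Ccdc127, Tmem248, Tmem243, Trappc13 of the vesicle-tethering TRAPP complex, and Irf2bp2, a transcriptional corepressor, with differences of 1.01, 0.90, 0.82, 0.83 and 0.87. The remaining 2, Adprh at 0.75 and Ywhaz, a 14-3-3 protein, at 0.68, fall outside the naming rule and are given to complete the set. On control chow the 14 genes differed between the sexes by 0.05 to 0.45 and did not pass.

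**Figure D1:**
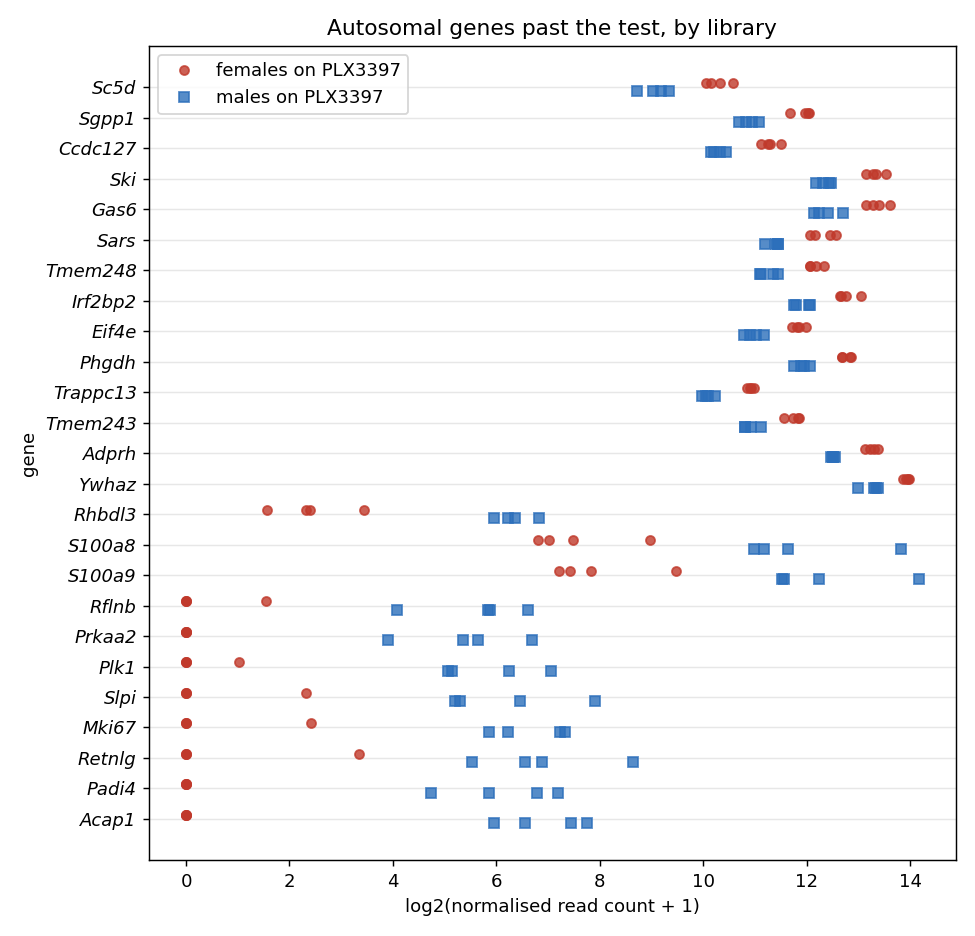
The 25 autosomal genes that passed, one row per gene, ordered by the difference between the sexes. The x axis is log2(normalised read count + 1), with 4 females on PLX3397 as circles and 4 males on PLX3397 as squares. The 14 genes at the top are higher in females and abundant, and of the 11 below, 8 have at least 1 female library at 0.

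The homeostatic list, genes of resting microglia, lay higher in females as a whole. All 36 autosomal members had a positive difference on deposited values, with a median of 0.47 against -0.00 for all genes. With equal totals 31 were positive and 5 negative, the median was 0.27 against -0.20, and all 36 still lay above the median of all genes. The groups did not overlap for 19 of the 36, against 7.34% of all genes tested in that direction, and for 9 with equal totals, against 2.72%. No member had groups separated with males higher, against 5.41% of all genes on deposited values and 10.1% with equal totals. Of the 36, 1 passed in the fit of 8 libraries and 21 in the fit of 16, against 4.95% of all genes, and 12 of those 21 also with equal totals, against 1.06%. On control chow the median was 0.04, and 1 member had groups that did not overlap, with females higher, against 1.78% of all genes in that direction.

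Gas6, which encodes a ligand of the TAM receptors that mediate clearance of dying cells, was the member that passed. It was at 10755, 9068, 12546 and 9952 normalised read counts in females and at 5473, 4542, 4803 and 6656 in males, a difference of 0.98 ± 0.148 (adjusted p = 0.0474). The groups were clearly separate, whereas control levels were 12615 to 14920 in females and 11366 to 14141 in males. Slc2a5, a fructose transporter gene, had the largest difference on the list. Females were at 7657, 8296, 13742 and 12148 and males at 2996, 2989, 2261 and 5159.6, a difference of 1.67 ± 0.265 that missed the threshold (adjusted p = 0.0532). All 4 females lay above all 4 males, and both were far below the controls, at 43637 to 54987 in females and 42183 to 47434 in males.

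The purinergic receptor gene P2ry12 was at 74599, 90063, 99544 and 99746 in females and at 62601, 48658, 50184 and 70892 in males, a difference of 0.66 ± 0.141 (adjusted p = 0.0707). The groups did not overlap. The fractalkine receptor gene Cx3cr1 was at 234380, 240750, 266070 and 242230 against 205050, 137680, 139820 and 178960, a difference of 0.59 ± 0.127 (adjusted p = 0.0706), again without overlap. Lpcat2, which encodes an enzyme of phospholipid remodelling, differed by 0.48 ± 0.094 (adjusted p = 0.0633). Tmem119, a surface marker of microglia, was at 68521, 89815, 143570 and 123080 against 48478, 40651, 43348 and 85302, a difference of 0.97 ± 0.272 (adjusted p = 0.112). Male replicate 4 lay within the female range, so these groups overlapped.

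**Figure D2:**
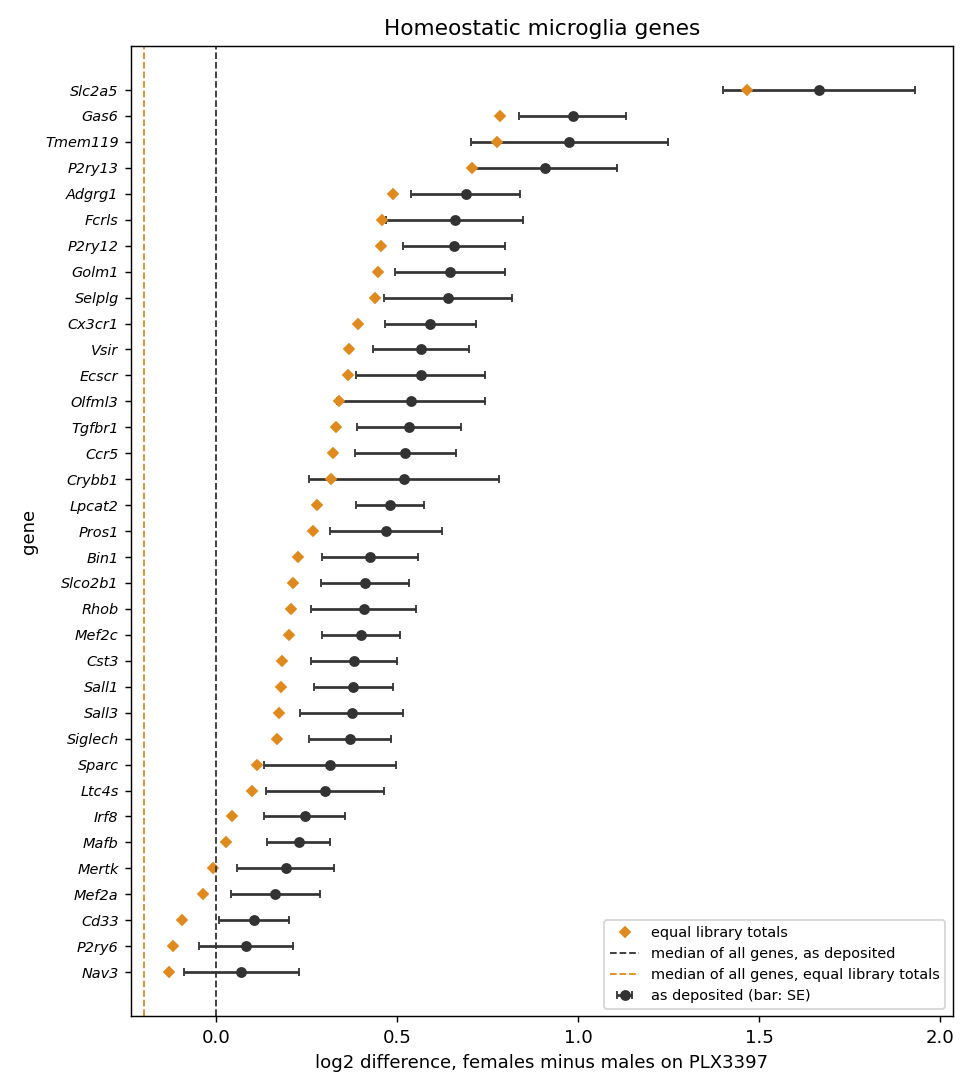
The autosomal homeostatic genes, one row each, with 1 of the 36 not shown. The x axis is the log2 difference of females minus males on PLX3397. Circles with SE bars are deposited values, diamonds are values with equal library totals, and dashed lines are the medians over all 17326 genes at -0.00 and -0.20. All circles lie above 0, led by Slc2a5 at 1.67.

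The drug's target Csf1r was at 440200, 439830, 440360 and 508010 in females and at 415930, 293100, 308000 and 376930 in males, a difference of 0.40 ± 0.114 (adjusted p = 0.116). The groups did not overlap on deposited values and overlapped with equal totals. Its ligand gene Csf1 was at 5690.1, 2761, 3810.4 and 2085 against 5056, 2678, 2728 and 4784, a difference of -0.13 ± 0.324 (adjusted p = 0.848). The sexes overlapped throughout, and the interval of the difference is wide. Of the 20 tested genes of the CSF1R axis, 2 were separated with females higher and 1 with males higher, near the 7.34% and 5.41% of all genes. The first 2 were Csf1r and Lyn, a Src family kinase, at 0.47 ± 0.094 (adjusted p = 0.0633), and the other was Csf3r, the G-CSF receptor gene, at -0.43 ± 0.119 (adjusted p = 0.111). The 15 tested ERK targets had a median of 0.51 with deposited totals and 0.31 with equal ones, but 10 were positive and 5 negative. On deposited values 1 had groups without overlap, with females higher, against 7.34% of all genes. With equal totals 0 did, against 2.72%. Ccnd1, the cyclin D1 gene, was at 535, 690.3, 912 and 249.8 in females and at 142, 170.0, 158 and 527 in males, a difference of 1.34 ± 0.487 (adjusted p = 0.181). Male replicate 4 lay within the female range, so the groups overlapped.

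The disease-associated list, genes raised in microglia near plaques, had members on both sides of 0. It lay near the median of all genes with deposited and with equal totals, but below it with cyclic loess. Its 30 members had a median of -0.03, 14 were positive, and the groups did not overlap for 3 with females higher and 2 with males higher, against 7.34% and 5.41% of all genes. With equal totals the median was -0.23, against -0.20 for all genes, and 14 of the 30 lay above the median of all genes on either scaling. On equal totals 9 were positive and 21 negative, and 0 and 4 were separated, against 2.72% and 10.1% of all genes. With cyclic loess the median was -0.28, against 0.00 for all genes. Trem2, a lipid-sensing receptor gene, differed by 0.17 ± 0.124 (adjusted p = 0.457), and by -0.03 with equal totals. Apoe, which encodes a lipid carrier, was at 128130, 169600, 131080 and 73554 against 142340, 92626, 107680 and 262430, a difference of -0.21 ± 0.33 (adjusted p = 0.747). Cd9, a tetraspanin gene, lay on the female side at 0.54 ± 0.134 (adjusted p = 0.0919). The growth factor gene Igf1 was at 165, 143, 428 and 96.2 in females and at 913, 563, 454 and 1225 in males, a difference of -2.04 ± 0.46 (adjusted p = 0.0725). All 4 males were above all 4 females, narrowly so between female replicate 3 and male replicate 3, and control levels were 75.2 to 111 in females and 30.0 to 151 in males. Fabp5, a fatty acid binding protein gene, differed by -1.11 ± 0.362 (adjusted p = 0.149).

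Lists of protein folding, turnover and synthesis lay above the median of all genes in females. For the unfolded protein and integrated stress response the median of 29 genes was 0.40, and 0.20 with equal totals. The groups were separated for 8 with females higher and 1 with males higher, against 7.34% and 5.41% of all genes. With equal totals they were separated for 3 and 1, against 2.72% and 10.1%. Hspa5, the chaperone BiP of the endoplasmic reticulum, was at 55013, 53609, 57954 and 57769 in females and at 46882, 27406, 31565 and 45553 in males, a difference of 0.60 ± 0.165 (adjusted p = 0.107). The females were tightly grouped and the males were not. The disulfide isomerase gene Pdia6 and the lectin chaperone gene Canx differed by 0.52 ± 0.144 and 0.56 ± 0.162 (adjusted p = 0.112 and 0.118). Of 39 proteasome genes 38 had a positive difference, the median was 0.34 (0.14 with equal totals), and 13 were separated with females higher and 1 with males higher, against 7.34% and 5.41% of all genes. With equal totals 32 were positive and 7 negative, and 6 and 1 were separated, against 2.72% and 10.1%. In the fit of 16 libraries 10 of the 39 were higher, against 4.95% of all genes, and 3 with equal totals, against 1.06%. The ubiquitin receptor gene Adrm1 and the lid and base subunits Psmd3 and Psmd1 differed by 0.58 ± 0.099, 0.55 ± 0.112 and 0.57 ± 0.121 (adjusted p = 0.0633, 0.0652 and 0.0692).

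Of 38 translation initiation factors, 36 had a positive difference, the median was 0.33 (0.13 with equal totals), and 11 were separated with females higher and 0 with males higher, against 7.34% and 5.41% of all genes. With equal totals 27 were positive and 11 negative, and 5 and 0 were separated, against 2.72% and 10.1%. Eif3b, a scaffold subunit, differed by 0.60 ± 0.12 (adjusted p = 0.0633). The 76 cytosolic ribosomal protein genes did not follow: their median was -0.01 (-0.21 with equal totals), at the median of all genes. On deposited values 0 were separated in either direction, against 7.34% and 5.41% of all genes. With equal totals 0 were separated with females higher and 10 with males higher, against 2.72% and 10.1%. In the fit of 16 libraries with equal totals 5 were lower in females, against 1.99% of all genes. Heat shock chaperones had a median of 0.37 over 20 genes (0.17 with equal totals). Among them Hspa4, which encodes an Hsp110 nucleotide exchange factor, was at 0.52 ± 0.108 (adjusted p = 0.0669).

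**Figure D3:**
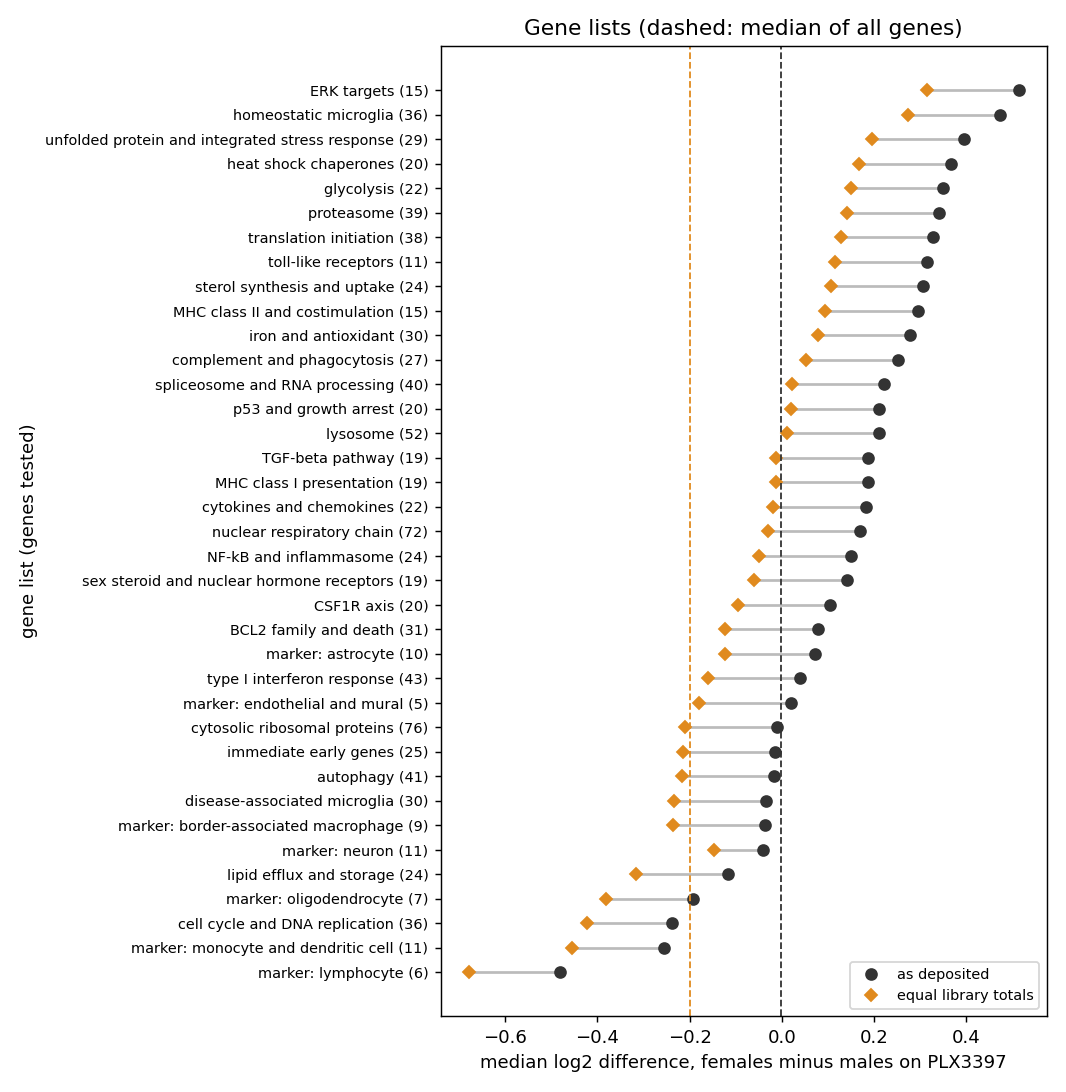
Median log2 difference of females minus males on PLX3397 (x axis) for each gene list, with the number of genes tested in brackets. Circles are deposited values, diamonds are equal library totals, and the dashed lines are the medians of all genes. The neutrophil list, at -4.33, lies off this axis and is left out. The homeostatic list stands at 0.47 and the cell cycle list at -0.24.

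Metabolic lists were mostly on the female side on deposited values. Glycolysis had a median of 0.35 over 22 genes (0.15 with equal totals). Slc2a1, the glucose transporter GLUT1 gene, was at 3892, 4095, 5282 and 4941 in females and at 2656, 1951, 2391 and 3116 in males, a difference of 0.86 ± 0.166 (adjusted p = 0.0633). Ldha, the lactate dehydrogenase A gene, differed by 0.57 ± 0.147 (adjusted p = 0.102). Sterol synthesis had a median of 0.31 over 24 genes (0.11 with equal totals), with 6 separated towards females, against 7.34% of all genes, and 2 with equal totals, against 2.72%. Beside Sc5d the 6 on deposited values included Dhcr7, which encodes the last reductase of cholesterol synthesis, at 0.58 ± 0.153 (adjusted p = 0.103) and Msmo1, a C4-demethylation enzyme, at 0.61 ± 0.185 (adjusted p = 0.131). The groups of Dhcr7 overlapped with equal totals. Of 30 iron and antioxidant genes 29 had a positive difference, with a median of 0.28 (0.08 with equal totals). With equal totals 21 were positive and 9 negative. Txnrd1, the thioredoxin reductase gene, was at 3629, 3187, 3220.1 and 2246 against 1819.8, 1558, 1317 and 1757, a difference of 0.92 ± 0.175 (adjusted p = 0.0633). The glutathione synthesis gene Gclc differed by 0.53 ± 0.127 (adjusted p = 0.0848). Nuclear genes of the respiratory chain had a median of 0.17 over 72 genes and of -0.03 with equal totals.

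Genes of innate sensing and clearance were uneven. Tlr5, the flagellin receptor gene, was at 207, 209.9, 674 and 327 in females and at 76.8, 91.4, 54.1 and 74.1 in males, a difference of 2.09 ± 0.385 (adjusted p = 0.0633), while controls were at 1083 to 1358 in females and 1169 to 1216 in males. Its groups did not overlap on either scaling. It was the only one of 11 toll-like receptor genes for which that held, against 7.34% of all genes on deposited values and 2.72% with equal totals. Of 27 complement and phagocytosis genes, 5 were separated with females higher and 1 with males higher on either scaling, against 7.34% and 5.41% of all genes on deposited values and 2.72% and 10.1% with equal totals. Rac1, a GTPase of engulfment, differed by 0.59 ± 0.117, and the C3a receptor gene C3ar1 by 0.58 ± 0.13 (adjusted p = 0.0633 and 0.0713). Of 52 lysosomal genes, 9 were separated with females higher and 0 with males higher, against 7.34% and 5.41% of all genes. With equal totals 7 and 0 were separated, against 2.72% and 10.1%. Arsb, a lysosomal sulfatase gene, was at 6046, 7082, 8132 and 8575 against 3932, 3829, 3697 and 5076, a difference of 0.85 ± 0.147 (adjusted p = 0.0633). Atp6v1h, a subunit of the proton pump, and Laptm4b, a lysosomal membrane protein gene, differed by 0.63 ± 0.109 and 0.71 ± 0.159 (adjusted p = 0.0633 and 0.0732).

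Of 24 NF-kB and inflammasome genes, 6 were separated with females higher and 0 with males higher, against 7.34% and 5.41% of all genes. With equal totals 2 were separated in each direction, against 2.72% and 10.1%. Rela, the p65 subunit gene, and Nfkbib, an inhibitor of it, differed by 0.64 ± 0.13 and 0.64 ± 0.134 (adjusted p = 0.0652 and 0.069). The 43 type I interferon response genes had a median of 0.04 (-0.16 with equal totals), and 1 was separated, with males higher, against 5.41% of all genes. It was Oas3, an RNA-sensing synthetase gene, at -1.19 ± 0.361 (adjusted p = 0.131). With equal totals 2 were separated with males higher and 0 with females higher, against 10.1% and 2.72%. Among death and arrest genes, Trp53 was at 5814, 5306, 6625 and 5695 in females and at 3939, 3233, 3881 and 3645 in males, a difference of 0.67 ± 0.115 (adjusted p = 0.0633). Bid, which links death receptors to mitochondria, differed by 0.78 ± 0.142, and the necroptosis kinase gene Ripk3 by 0.96 ± 0.209 (adjusted p = 0.0633 and 0.0707). Their groups did not overlap. The median of the 31 BCL2 family and death genes was 0.08, or -0.12 with equal totals.

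The remaining lists are given by their medians and counts. Spliceosome genes had a median of 0.22 over 40 (0.02 with equal totals), with 9 separated towards females, against 7.34% of all genes. With equal totals 3 were separated towards females and 4 towards males, against 2.72% and 10.1%. MHC class II genes had a median of 0.29 over 15 and MHC class I genes 0.19 over 19, with 4 and 3 separated towards females, against 7.34% of all genes. With equal totals their medians were 0.09 and -0.01, 1 class II and 0 class I genes were separated towards females, against 2.72%, and 0 and 1 towards males, against 10.1%. The TGF-beta list, which holds Ski, had a median of 0.19 over 19, p53 and growth arrest genes 0.21 over 20, and cytokines and chemokines 0.18 over 22. With equal totals these 3 medians were -0.01, 0.02 and -0.02, against -0.20 for all genes. Sex steroid and nuclear hormone receptors had a median of 0.14 over 19 genes (-0.06 with equal totals), with 0 past the test. The groups were separated for 1, with females higher, against 7.34% of all genes, and for 0 with equal totals, against 2.72%. Autophagy genes stood at -0.02 over 41, immediate early genes at -0.02 over 25, and genes of lipid efflux and storage at -0.12 over 24. With equal totals they stood at -0.22, -0.21 and -0.32.

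Cell cycle genes held 2 of the 11 lower calls. Mki67, a marker of dividing cells, was at 0, 4.37, 0 and 0 in females and at 57.0, 73.8, 149 and 158 in males, a difference of -6.05 ± 0.725 (adjusted p = 0.0328). Plk1, a mitotic kinase gene, was at 0, 0, 0 and 1.03 in females and at 74.7, 32.7, 34.3 and 133 in males, a difference of -5.63 ± 0.695 (adjusted p = 0.0328). Both were near 0 in females on PLX3397 and present in all 4 males, and both passed with equal totals (adjusted p = 0.0262). They met the filter only through the 4 males, so the separation of their groups was fixed by it. In female controls Plk1 was at 92.9 to 142, and Mki67 was at 46.9, 22.2, 0 and 38.3, with 1 library at 0. The levels are low, and the log2 differences depend on the constant of 1 added to each value. Cdk1, which drives entry into mitosis, was at 87.7, 50, 66.7 and 70.3 against 240.5, 152, 135 and 161, a difference of -1.30 ± 0.288 (adjusted p = 0.0711). The 36 tested genes of the list had a median of -0.24 (-0.42 with equal totals, -0.05 without male replicate 3), with 5 separated towards males and 1 towards females, against 5.41% and 7.34% of all genes. With equal totals 7 were separated towards males and 0 towards females, against 10.1% and 2.72%. Mki67 and Plk1 are in the counts towards males on both scalings, so part of those counts came from the filter.

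Of the other 9 genes lower in females, 3 were on the neutrophil list: S100a9, S100a8 and Retnlg. The promoters of the 4 neutrophil list genes with the highest mean in males are shown because every list member was higher in males. They were chosen after their values were seen. Each runs from 250 bases before to 50 after the RefSeq start on GRCm38.p6, on the gene's strand, 5′ to 3′. Capitals mark matches to TTGCNNAA on either strand, a pattern of the kind bound by C/EBP factors, which drive granulocyte genes.
S100a9 (chr3:90695672-90695971, minus strand): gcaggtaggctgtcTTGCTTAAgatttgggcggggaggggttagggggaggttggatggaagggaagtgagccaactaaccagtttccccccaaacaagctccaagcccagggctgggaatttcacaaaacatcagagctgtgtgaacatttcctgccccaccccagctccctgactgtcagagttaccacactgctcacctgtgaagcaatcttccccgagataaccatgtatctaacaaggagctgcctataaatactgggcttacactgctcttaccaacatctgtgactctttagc
Ngp (chr9:110419558-110419857, plus strand): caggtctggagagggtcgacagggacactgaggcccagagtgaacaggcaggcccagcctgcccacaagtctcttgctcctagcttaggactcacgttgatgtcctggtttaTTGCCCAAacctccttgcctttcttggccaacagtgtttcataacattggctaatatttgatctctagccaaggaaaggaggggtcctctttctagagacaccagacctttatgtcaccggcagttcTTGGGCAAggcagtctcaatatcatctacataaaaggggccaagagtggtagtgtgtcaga
S100a8 (chr3:90668821-90669120, plus strand): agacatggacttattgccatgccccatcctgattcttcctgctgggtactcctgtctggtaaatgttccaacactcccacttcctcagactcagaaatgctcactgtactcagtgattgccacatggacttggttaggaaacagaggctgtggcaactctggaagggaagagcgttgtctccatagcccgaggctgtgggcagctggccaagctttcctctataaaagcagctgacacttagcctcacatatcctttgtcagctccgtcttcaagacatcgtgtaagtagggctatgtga
Ltf (chr9:111019042-111019341, plus strand): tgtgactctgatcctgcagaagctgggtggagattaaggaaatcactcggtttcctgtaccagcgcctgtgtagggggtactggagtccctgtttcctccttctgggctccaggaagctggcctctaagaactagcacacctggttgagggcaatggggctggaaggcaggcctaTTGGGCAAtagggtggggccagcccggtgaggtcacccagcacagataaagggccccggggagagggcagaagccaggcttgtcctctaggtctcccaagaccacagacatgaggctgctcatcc
The Ngp window held 2 matches, S100a9 and Ltf 1 each and S100a8 0. A match was found for 7 of the 11 list genes with a RefSeq promoter, against 10.8% of 32851 promoters and 2 of 26 homeostatic genes. List genes were counted if any of their promoters matched, as for Ly6g, where another promoter did not. The 10.8% counts promoters singly, so the units differ. A match is a run of letters and not a measured site.

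S100a9, a subunit of calprotectin, was at 226, 170.1, 147 and 712 in females and at 2951, 3005, 18393 and 4833 in males, a difference of -4.39 ± 0.636 (adjusted p = 0.0474). Its partner S100a8 was at 128, 111, 178 and 499 against 2020.5, 2305, 14419 and 3184, a difference of -4.33 ± 0.644 (adjusted p = 0.0474). Every male lay above every female, and male replicate 3 was the highest by far. Without it the differences were -3.79 and -3.70 (adjusted p = 0.0887 for both), and with equal totals they were -4.59 and -4.53 (adjusted p = 0.0502 and 0.0535). Retnlg, a resistin-like gene of granulocytes, was at 0, 0, 9.18 and 0 against 92.6, 116, 399 and 45.3, a difference of -6.06 ± 0.934 (adjusted p = 0.0493). Retnlg met the filter only through the males, so the separation of its groups was fixed by it. The antimicrobial peptide gene Camp differed by -4.22 ± 0.691 (adjusted p = 0.0578). All 11 tested members lay lower in females, from -0.59 to -6.84 with a median of -4.33 (-4.50 with equal totals, -3.70 without male replicate 3), 3 passed, and 9 were separated, against 5.41% of all genes. With equal totals 10 were separated, against 10.1%. Retnlg is in the separated counts on both scalings, so part of those counts came from the filter.

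The summed level of the neutrophil list was 1046 to 3493 in females and 10696 to 75471 in males, which is 0.00248% to 0.00832% and 0.0274% to 0.215% of the library totals. Ly6g, the defining surface marker of neutrophils, was at 0.465, 0, 18.1 and 0 in females and at 24.5, 26.7, 92.1 and 76.2 in males. Like Ngp, Ltf and Lcn2, it was named after its values were seen. In controls Ly6g was listed at 0 in all 8 libraries, and the list summed to 203 to 271 in females and 531 to 3668 in males. Monocyte and dendritic cell markers summed to 1392 to 2023 in females and 1932 to 7725 in males, with Ly6c2 at 3.06, 3.36, 2.08 and 39.3 against 6.75, 181, 833 and 866. Chil3, of the same list, was at 65.5, 70.2, 139.6 and 411 against 407, 767, 4879 and 876. The medians of the other marker lists were -0.26 for monocytes and dendritic cells, -0.48 for lymphocytes, -0.19 for oligodendrocytes, -0.04 for neurons and for border-associated macrophages, 0.07 for astrocytes and 0.02 for endothelium, and no red cell gene was tested. With equal totals those medians were, in the same order, -0.46, -0.68, -0.38, -0.15, -0.24, -0.12 and -0.18, against -0.20 for all genes. The sums for border-associated macrophages, lymphocytes, neurons, astrocytes, oligodendrocytes and endothelium overlapped between the sexes. The part of these cells in the other results was not tested. Without male replicate 3, where the neutrophil list was highest, the median of the homeostatic list was 0.42. The neutrophil sums of the remaining males, at 10696 to 18193, still exceeded those of all females. That value is therefore no test of the part of these cells.

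Of the other genes lower in females, Acap1, a GTPase-activating protein gene for ARF6, was listed at 0 in all 4 females and at 60.9, 92.9, 216 and 172 in males (adjusted p = 0.00658). Padi4, which encodes an enzyme that citrullinates histones and is abundant in neutrophils, was listed at 0 in all 4 females and at 25.6, 56.7, 109.5 and 145 in males (adjusted p = 0.0328). Prkaa2, a catalytic subunit gene of AMP-activated kinase, was likewise at 0 in females and at 48.8, 13.9, 40.1 and 102 in males (adjusted p = 0.0474). No fold is given for these 3. Slpi, a leukocyte protease inhibitor gene, was at 0, 0, 0 and 4.00 against 86.5, 38.3, 239 and 35.7 (difference -5.63 ± 0.836, adjusted p = 0.0474). Rflnb, a filamin-binding protein gene, was at 0, 1.91, 0 and 0 against 15.9, 57.8, 97.3 and 55.9 (difference -5.22 ± 0.764, adjusted p = 0.0474). Rhbdl3, a rhomboid family gene, was at 1.96, 9.82, 4.00 and 4.30 against 80.9, 60.9, 74.2 and 112 (difference -3.91 ± 0.508, adjusted p = 0.0329). All female values of these 6 genes were under 10, so they met the filter only because all 4 males reached 10. Separation of their groups was thereby fixed by the filter and is no support for the calls. Acap1, Padi4, Prkaa2 and Rhbdl3 also passed with equal totals.

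**Figure D4:**
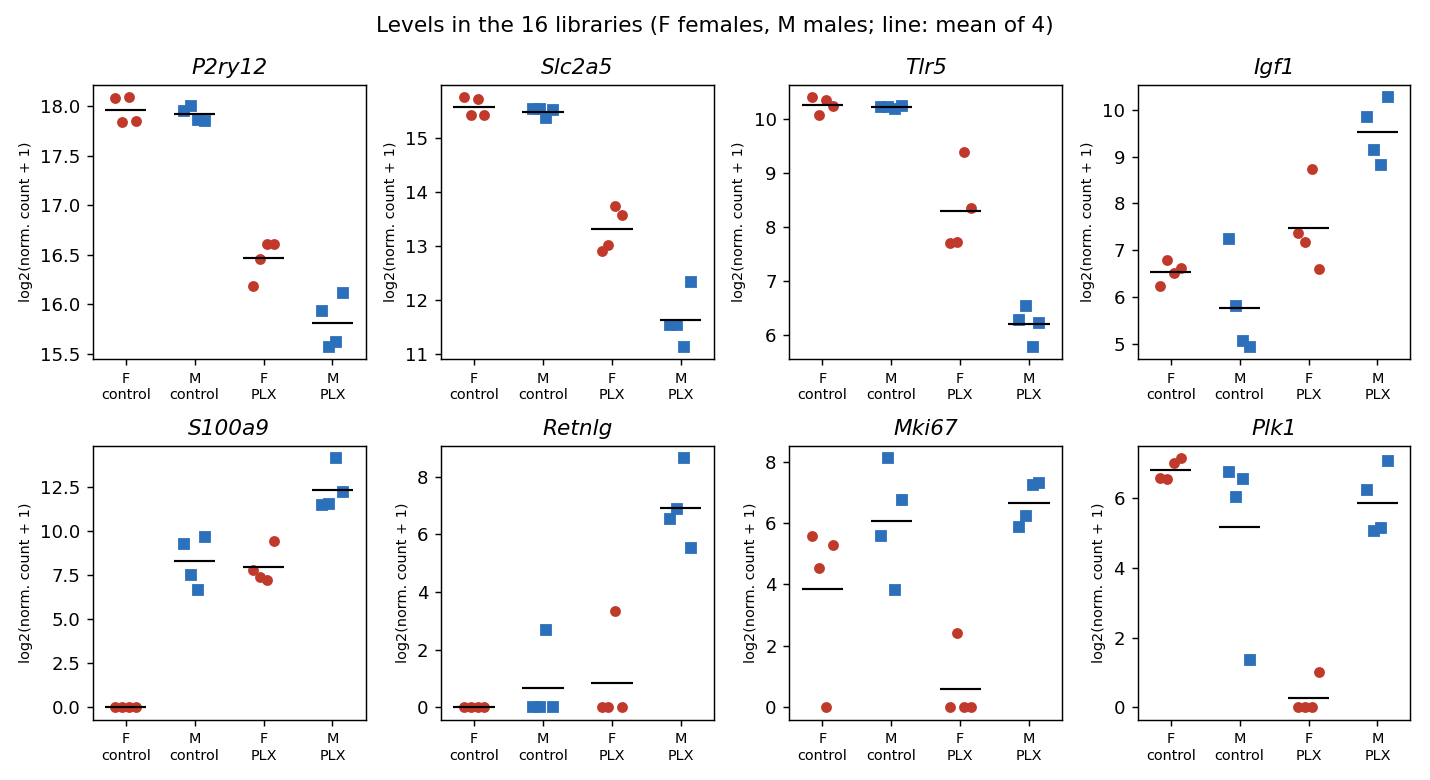
Levels of 8 genes in the 16 libraries on a log2(normalised read count + 1) axis. Circles are females, squares are males, each point is a library and lines are means of 4. For P2ry12, Slc2a5 and Tlr5 the sexes overlap on control chow and do not on PLX3397, where females are higher, and S100a9 is listed at 0 in the 4 female controls.

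On control chow 5 genes passed (0.0289%), all lower in females and all on the neutrophil list: S100a9, S100a8, Ltf, Ngp and Lcn2. S100a9, S100a8, Ltf and Lcn2 were listed at 0 in all 4 female controls, and Ngp at 0, 0, 1.30 and 0. In male controls S100a9 was at 619.6, 180.4, 102 and 829, Ngp at 1129, 198, 27.0 and 919.8, and Lcn2, an iron-siderophore binding protein gene, at 279.7, 72.7, 34.3 and 198. On PLX3397 the groups did not overlap for any of the 5, and S100a9 and S100a8 passed while Ltf, Ngp and Lcn2 did not (adjusted p = 0.0633, 0.0633 and 0.084). At an unadjusted p under 0.05, 472 genes were higher (2.72%) and 423 lower (2.44%) in female controls, and the groups of 317 did not overlap with females lower (1.83%). Male control replicate 4 had Xist at 516, against a median of 24.5 in that group, and without it 6 genes passed. Without male control replicate 1 the count was 14.

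The difference between the sex differences on the 2 chows was tested directly, and 0 genes passed with limma, while 1211 were positive (6.99%) and 635 negative (3.67%) at an unadjusted p under 0.05. Leaving out 1 library gave 0 to 7 calls, with 7 when male PLX3397 replicate 4 was left out and at most 2 for any other. The smallest p-values on the positive side included Oaf, at 1411, 1175, 1409 and 805 in females on PLX3397 and at 307, 456, 460.2 and 487 in males, with controls at 2035 to 2547 and 2403 to 2793. Its interaction was 1.65 and that of Slc2a5 1.58, and on the negative side that of Plk1 was -7.27 (adjusted p = 0.126 to 0.193 over the 12 genes taken by the rule). The sexes were thus not shown to differ more on PLX3397 than on control chow for any single gene. For the homeostatic list the median interaction was 0.43, against 0.02 for all genes.

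The sex difference also depended on the level of a gene. Among 2862 genes with a mean under 32 normalised read counts the median difference was -0.43, among 3477 genes from 32 to 128 it was -0.37, and among 2706 genes from 128 to 512 it was -0.13. It was 0.14 for 4474 genes from 512 to 2048 and 0.20 for 3807 genes above that. Equal totals moved all of these down, to -0.62 at the lowest levels and 0.00 at the highest. On control chow the medians ran from -0.17 to 0.04. The homeostatic, proteasome and translation genes named above are abundant. The shares of all genes set beside the list counts pool every level, and no share at matched level was computed. Normalising by cyclic loess, which removes a trend with level, left a median of 0.22 for the homeostatic list and 0.16 and 0.12 for the other 2. It left 0.21 for the unfolded protein list, 0.16 for glycolysis and 0.30 for sterol synthesis. Medians were 0.03 for complement and for spliceosome genes, 0.01 for NF-kB and -0.00 for the respiratory chain. They were -0.01 for TGF-beta and for MHC class I, and -0.05 for lysosomal genes. With cyclic loess 1 gene passed the threshold in all (0.00577%), lower in females.

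**Figure D5:**
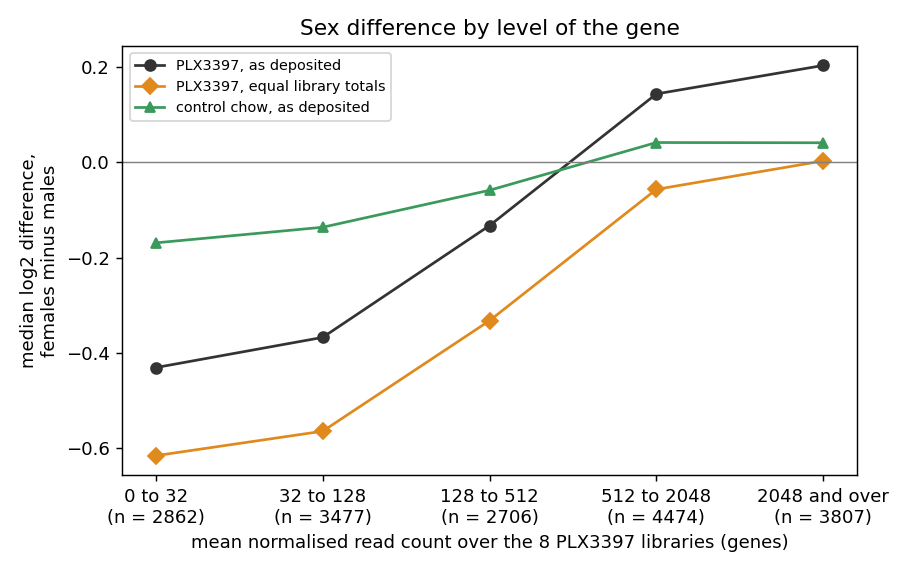
Median log2 difference of females minus males (y axis) for genes grouped by their mean normalised read count over the 8 PLX3397 libraries (x axis, with the number of genes). Circles are deposited values, diamonds are equal library totals and triangles are control chow. On PLX3397 the medians run from -0.43 at the lowest levels to 0.20 at the highest.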

How the data were processed

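The authors deposited a table of normalised read counts per gene (unit: signal, not whole counts). Per the submitters' processing notes, the genome build was GRCm39 and the tools included Salmon 1.5.2, STAR 2.7.9a, featureCounts 2.0.1 from Subread, and bcl2fastq 2.19.1, with no role or order stated. The formula of the normalisation is not given in the sources used here, so depth is only estimated and no count model was used. Of 53850 identifiers, 51029 were matched to symbols and chromosomes in a GENCODE annotation of GRCm38, and 158 genes past the filter without a chromosome were left out. limma 3.58.1 (R 4.3.3; two-sided, trend on level) was applied to log2(value + 1) of autosomal genes, with the 8 PLX3397 libraries alone for the main comparison and all 16 for control chow and the interaction. On simulated data of 17326 genes the main comparison recovered 12 of 50 genes changed 1.5-fold, 43 of 50 changed 2-fold, all 50 changed 4-fold, and 5 of 17126 unchanged genes. The changed genes were drawn only from genes well above the filter, and the noise was normal with a spread set by level alone. The simulated sexes shared their totals, so the recovery does not describe low genes or the real differences between libraries. Named genes were 8 set markers, up to 12 calls per direction with the largest difference, separated groups and a mean of at least 50 (filled to 12 by the smallest p where fewer passed), up to 3 members of each of 39 lists with the smallest p, and 6 per direction for the interaction. The members, lists and rule were chosen with earlier results of these data known. Figures used matplotlib 3.10.9 in Python 3.11.15. Some genes are counted within their lists and not reported by name here.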

Additional observations from a re-analysis of the deposited data

Results flagged for a closer look

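Each group of 4 libraries on PLX3397 was tested for a library far from the rest by Dixon's ratio at its 95% critical value. The tests covered the named genes and library measures, and 22 of 168 stood out. Chance flags about 1 in 20 where tests are independent and values normal. Here many genes were chosen from these same values and several flags share a library, so that rate is no yardstick for the 22. In male replicate 3 the neutrophil list summed to 75471, with S100a9 at 18393, S100a8 at 14419, Ngp at 17562, Ltf at 10016, Lcn2 at 3739, Camp at 8153 and Chil3 at 4879, all far above the other 3 males. In female replicate 4 the list summed to 3493, with S100a9 at 712, Ngp at 1142 and the monocyte gene Ly6c2 at 39.3, above the other 3 females. That library also had the highest Csf1r, at 508010.

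Single libraries stood out where the rest of the group was at or near 0: Mki67 at 4.37 and Rflnb at 1.91 in female replicate 2, Plk1 at 1.03 and Slpi at 4.00 in female replicate 4, and Retnlg at 9.18 and Ly6g at 18.1 in female replicate 3. For Mki67, Rflnb, Plk1, Slpi and Retnlg the rest were at 0, so a ratio of 1 was fixed in advance. Msmo1 was at 2687 in female replicate 3, Ccnd1 at 527 in male replicate 4, and pseudogenes took 0.457% of the total in female replicate 1, each above the rest of its group.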

How the results depend on the processing

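The main count of 25 genes was 7 with equal library totals, 12 with upper-quartile scaling, 1 with quantile normalisation, 1 with cyclic loess, 10 with a pseudocount of 0.5 and 36 with one of 5. It was 11 with no filter, 169 with a minimum value of 50, 47 with all chromosomes, 240 with array weights, 0 with vooma weights, 1072 in the fit of all 16 libraries (529 with equal totals) and 496 at an adjusted p under 0.1. Leaving out a library gave 0 to 17. Same-numbered libraries of the sexes did not deviate together (correlations of -0.03, 0.01, -0.04 and 0.00), so replicate numbers do not pair them, and a replicate block left 0 genes. Counts on control chow ranged from 5 to 14 with a library left out, and the interaction from 0 to 7, with 3 at a pseudocount of 5. Trem2 turned to -0.026 with equal totals, -0.065 with upper-quartile scaling, -0.14 with quantile normalisation and -0.086 with cyclic loess. Csf1 ranged from -0.38 to 0.10 with a library left out, turning to 0.032 without male replicate 1, 0.0052 without male replicate 4 and 0.10 without female replicate 4. Apoe ranged from -0.40 to 0.098, turning to 0.098 and 0.029 without the last 2. All 25 called genes kept their direction under every alternative run. With a library left out or another pseudocount this was fixed in advance, since the groups of all 25 did not overlap. The causes of these changes were not tested. Cyclic loess, the wider threshold and the fit of 16 libraries with equal totals were chosen after seeing the data. Low genes, with values near that of a few reads, are limited by depth.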
